A study of Mus musculus with 4 samples.

Results

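Prostanoid receptors are the cell surface proteins through which cells sense prostaglandins and thromboxane, and the 8 genes that encode them in the mouse (Ptger1, Ptger2, Ptger3, Ptger4, Ptgir, Ptgdr, Ptgdr2 and Tbxa2r) were examined among the 32285 genes of a single-cell RNA sequencing table. All 8 were taken by name and none was chosen for its level. The cells were CD45+ immune cells sorted from melanomas of Rag2-/- mice, which make no T or B cells of their own, taken on day 10 of growth, 72 h after the mice had received OT-1 T cells on day 7. The tumours grew from YUMM1.7OVA, a mouse melanoma line expressing ovalbumin, the antigen that OT-1 cells recognise. The 4 samples, 1 per group, were NTT, grown from cells naive to targeted therapy, RTT, grown from cells resistant to it, RTT_ROSA26, resistant cells edited with a control guide at the Rosa26 locus, and RTT_PTGS12KO, a resistant line in which Ptgs1 and Ptgs2 were knocked out. Per the labels and the study's methods these were clonal or edited cell lines, so a sample stands for 1 line and not for its group at large. Resistant cells were kept in culture with dabrafenib, an inhibitor of mutant BRAF, and the knockout was made in the cancer cells, while the sorted host cells kept both genes.

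Prostaglandins are made from arachidonic acid by the cyclooxygenases that Ptgs1 and Ptgs2 encode, followed by a synthase for each product. Prostaglandin E2 acts on 4 receptors. EP2 (Ptger2) and EP4 (Ptger4) couple to Gs and raise cyclic AMP, EP3 (Ptger3) mainly couples to Gi and lowers it, and EP1 (Ptger1) acts mainly through calcium. The prostacyclin receptor IP (Ptgir) and the prostaglandin D2 receptor DP1 (Ptgdr) also raise cyclic AMP, the second prostaglandin D2 receptor, CRTH2 (Ptgdr2), is a Gi-coupled chemoattractant receptor, and TP (Tbxa2r) is the thromboxane receptor. In myeloid cells cyclic AMP is known to dampen inflammatory gene expression, and EP4 is known for its part in the migration of dendritic cells. The question the data bear on is which cells of these tumours carried transcripts for which receptor, and whether that differed between the samples.

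The matrix held 33368 cells and 443071307 unique molecular identifiers (UMIs, each counting 1 captured transcript), between 6836 and 10296 cells a sample. NTT was the shallowest sample, with a median of 7293 UMIs per cell against 12219 to 13280 in the others. The authors assigned the cells to 17 types, and their names are kept here. A UMI of Ptprc, which encodes CD45, was present in 90.2% to 94.4% of cells. Of the 17 names, 12 stood first for their own marker list. TAM_Spp1, TAM_H2Ab1, Ctsk_Macro and Macro did not, and Macro stood first for the markers of cDC2. The type cDC2 stood first for plasmacytoid dendritic cell markers and next for its own, and DC3 stood first for those of CCR7+ dendritic cells. Of 33270 distinct barcodes 75 occurred in 2 samples, in no case within 1 chip load. Of 67 combinations of type and sample, 42 held at least 50 cells, and comparisons within types use only these. With 1 sample per group there is no replicate check and no test was made. Intervals are exact 95% counting intervals (Poisson for levels, Clopper-Pearson for shares, conditional binomial for ratios) and do not cover the variation between mice. The labels give 1 tumour per condition and the study's legends pooled tumours, which was not settled. The types are clusters of these same cells, so differences between types are described and not tested.

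All 8 genes are protein coding. On GRCm38, Ptger4 lies on the minus strand of chromosome 15 from 5206661 to 5244187 and Ptger2 on the plus strand of chromosome 14 from 44988195 to 45003820. Ptgdr lies near Ptger2, on chromosome 14 from 44851235 to 44859375 on the minus strand. Ptgir lies on chromosome 7 from 16906490 to 16910905, Tbxa2r on chromosome 10 from 81328731 to 81335172, Ptger3 on chromosome 3 from 157566892 to 157645888, Ptger1 on chromosome 8 from 83666678 to 83672753 and Ptgdr2 on chromosome 19 from 10937160 to 10942511, all on the plus strand. Ttc33 overlaps Ptger4 and Ccdc86 overlaps Ptgdr2, both on the opposite strand. The strand setting of the counting is not given in the sources used here.

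The promoters of the 3 receptor genes with most UMIs are shown because Ptger4, Ptger2 and Ptgir were highest in different cell types, as described further on. RefSeq entries on GRCm38.p6 were found for 7 of the 8 genes, each from 250 bases before to 50 bases after the start of transcription and written along the gene's own strand. Capitals mark matches to any of the motifs searched on both strands. These were the cyclic AMP response element TGACGTCA and its short form TGACG, AP-1 (TGANTCA), NF-kB (GGGA and CC around any 4 bases), ISRE (GAAA and GAAA around any 2 bases), GAS (TTCNNNGAA), PU.1 (GAGGAAGT) and Sp1 (GGGCGG).
Ptger4, chr15:5244138-5244437, minus strand: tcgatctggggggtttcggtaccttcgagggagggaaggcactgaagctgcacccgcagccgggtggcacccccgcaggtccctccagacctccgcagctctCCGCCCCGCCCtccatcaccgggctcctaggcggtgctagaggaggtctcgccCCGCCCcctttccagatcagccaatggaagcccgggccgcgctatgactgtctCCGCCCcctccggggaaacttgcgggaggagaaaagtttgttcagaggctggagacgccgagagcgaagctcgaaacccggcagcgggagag
Ptger2, chr14:44987861-44988160, plus strand: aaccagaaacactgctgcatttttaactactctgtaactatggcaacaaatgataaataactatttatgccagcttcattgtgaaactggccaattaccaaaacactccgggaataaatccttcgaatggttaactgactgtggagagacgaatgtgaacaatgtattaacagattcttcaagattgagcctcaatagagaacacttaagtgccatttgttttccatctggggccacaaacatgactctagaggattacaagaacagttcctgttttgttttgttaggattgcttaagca
Ptgir, chr7:16906240-16906539, plus strand: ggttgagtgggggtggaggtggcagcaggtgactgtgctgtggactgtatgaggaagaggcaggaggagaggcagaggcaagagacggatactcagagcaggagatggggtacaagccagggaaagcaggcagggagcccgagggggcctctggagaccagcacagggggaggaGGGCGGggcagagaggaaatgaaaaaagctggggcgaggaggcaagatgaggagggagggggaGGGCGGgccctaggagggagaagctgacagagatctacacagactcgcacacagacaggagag
The Ptger4 window had 67% G and C and 4 matches to the Sp1 letters, at -148, -143, -95 and -42 from the start, the first and second of them sharing a base. The Ptger2 window had 37.7% G and C, against a median of 52.7% over 32851 promoters, and held no match to any of these letters. The Ptgir window had 62% G and C and 2 Sp1 matches. Sp1 letters occurred in 35.7% of all promoters of this length, the short cyclic AMP element in 20.8%, the NF-kB letters in 20.7%, GAS in 8.3%, AP-1 in 7.81%, ISRE in 3.44%, PU.1 in 3.2% and the full cyclic AMP element in 1.79%, and except for Sp1 none of these occurred in the 3 windows. A match is a description of letters and not of a bound factor.

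Prostaglandin E2 receptors that raise cyclic AMP were by far the most abundant of the family. Ptger4 had 6909 UMIs in all cells and Ptger2 had 3640, followed by Ptgir with 581, Ptger1 with 274, Tbxa2r with 72, Ptger3 with 41, Ptgdr2 with 18 and Ptgdr with 2. Each UMI counts 1 transcript end whatever the transcript's length, so these totals can be set side by side, although capture can differ between genes. A UMI of Ptger2, Ptger4 or Ptgir was found in 23.2% of all cells (9.35% when every cell was reduced to 4000 UMIs). These shares count cells with a captured transcript and not the share of cells that express a receptor.

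Ptger4 was highest in the type DC3, whose leading markers are those of mature, migratory dendritic cells. Its level there was 145 counts per 1000000 UMIs (CPM, interval 127 to 165, 196 cells), and 57.1% of DC3 cells had a UMI. By sample the DC3 level was 171 in NTT (89 cells, interval 140 to 206), 122 in RTT_PTGS12KO (81 cells, 98.1 to 150), 194 in RTT_ROSA26 (14 cells, 123 to 292) and 102 in RTT (12 cells, 52.9 to 179). DC3 held the highest Ptger4 level of any type in all 4 samples, and the intervals of NTT and RTT_PTGS12KO, the samples with most DC3 cells, overlapped. Monocyte_3, a small type of non-classical monocytes, came next over all samples with 68.6 (40.7 to 109, 63 cells), then cDC2 with 44.5 (40.6 to 48.7) and Macro with 40.6 (34.3 to 47.7), which differed by less than their intervals.

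The level of Ptger4 in cDC2 was 43.5 in NTT, 46.6 in RTT_PTGS12KO, 31.0 in RTT and 53.2 in RTT_ROSA26, above every other type with at least 50 cells in its sample apart from DC3 and, in RTT, Macro. In the main tumour-associated macrophage and monocyte types Ptger4, summed over samples, ran from 12.3 CPM in TAM_Spp1 through 13.3 in Monocyte_1, 15.5 in Infl_Mono, 15.9 in TAM_C1q and 16.9 in TAM_cycling to 20.0 in TAM_H2Ab1. The transferred T cells (T_CD8) held 16.8 (12.3 to 22.3), cDC1, the cross-presenting dendritic cells, 15.5, neutrophils 11.3 and NK cells 10.8. Neighbours in this summed order overlapped in their intervals, while Monocyte_1 and TAM_C1q did not. The order differed by sample. TAM_Spp1 held 7.39 in RTT and 17.8 in RTT_PTGS12KO, above the 7.16 and 13.5 of Monocyte_1 in the same samples. Ctsk_Macro, with 3.82, and Myofibrobl, with 2.07, were the lowest.

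Ptger2 followed another order. With the samples summed it was highest in cDC1, at 13.9 CPM (8.25 to 22.0), Monocyte_1 at 11.6 (10.8 to 12.3), TAM_Spp1 at 11.3 (10.4 to 12.3) and Macro at 11.2 (8.02 to 15.2), which all overlapped, followed by T_CD8 at 9.98, TAM_C1q at 8.42, TAM_H2Ab1 at 8.11, Neutro at 7.98, Infl_Mono at 7.65, TAM_cycling at 6.59 and NK cells at 5.64. The order changed by sample, with Monocyte_1 highest in RTT at 15.7, Macro in RTT_ROSA26 at 15.4 and Neutro in RTT_PTGS12KO at 13.2 among types with at least 50 cells in the sample, and cDC1 had fewer than 50 cells in each sample. In cDC2 it was 4.48 (3.30 to 5.94). DC3, first for Ptger4, held 2 UMIs of Ptger2 in 196 cells, or 1.24 (0.150 to 4.47). Myofibrobl was again lowest, with 0.319. Across the 42 combinations of type and sample with at least 50 cells the levels of both receptors were nearly unrelated (Pearson r = 0.20 on log2(CPM + 1)). These points share libraries and depths, and no p is given for them.

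The balance of both receptors therefore differed widely between types. With the samples summed, Ptger4 exceeded Ptger2 by 117-fold in DC3 (32.0 to 972), 9.94-fold in cDC2 (7.38 to 13.7) and 3.63-fold in Macro. The excess was 2.56-fold in TAM_cycling, 2.03-fold in Infl_Mono, 1.89-fold in TAM_C1q and 1.92-fold in NK cells. These values moved by sample. In cDC2 they ran from 3.47-fold in RTT (2.06 to 6.13) to 16.2-fold in RTT_ROSA26. TAM_cycling ran from 1.36-fold in RTT to 7.25-fold in NTT, on 4 Ptger2 UMIs, and TAM_C1q from 1.32-fold in RTT to 2.62-fold in RTT_ROSA26. In Monocyte_1 and TAM_Spp1 the summed levels were nearly even, at 1.15-fold and 1.09-fold, over samples that differed, from 0.638-fold in RTT to 1.83-fold in RTT_PTGS12KO for TAM_Spp1 and down to 0.456-fold in RTT for Monocyte_1. Among monocytes and macrophages, 1.68% of cells had a UMI of both receptors, 11.8% of Ptger4 alone, 8.29% of Ptger2 alone and 78.2% of neither. Cells with both were deeper, with a median near 20400 UMIs against 10300 in cells with neither, so these shares depend on depth. They were not set against the share with both that independent detection would give.

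Free RNA in the droplets gives some UMIs in cells that do not express a gene, so each level was set against what markers of foreign cells found in the same type would bring. Ptger4 stood 125-fold above that level in DC3, 34.3-fold in cDC2, 50.5-fold in TAM_C1q, 19.0-fold in T_CD8, 13.5-fold in Myofibrobl and 6.50-fold in NK cells. The Ptger2 level in DC3 was 2.03 times it and rests on 2 UMIs. The share of cells with a UMI of Ptger4, after reduction of each cell to 4000 UMIs, was 40.6% in DC3 (33.4 to 48.3), 14.1% in cDC2, 13.9% in Macro, 7.30% in TAM_H2Ab1 and 6.22% in T_CD8. It was lowest in Myofibrobl, at 0.902%. As counted the shares were 57.1% in DC3 and 5.70% in Myofibrobl, although Myofibrobl cells were deeper, with a median of 33686 UMIs against 7026.

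**Figure D1:**
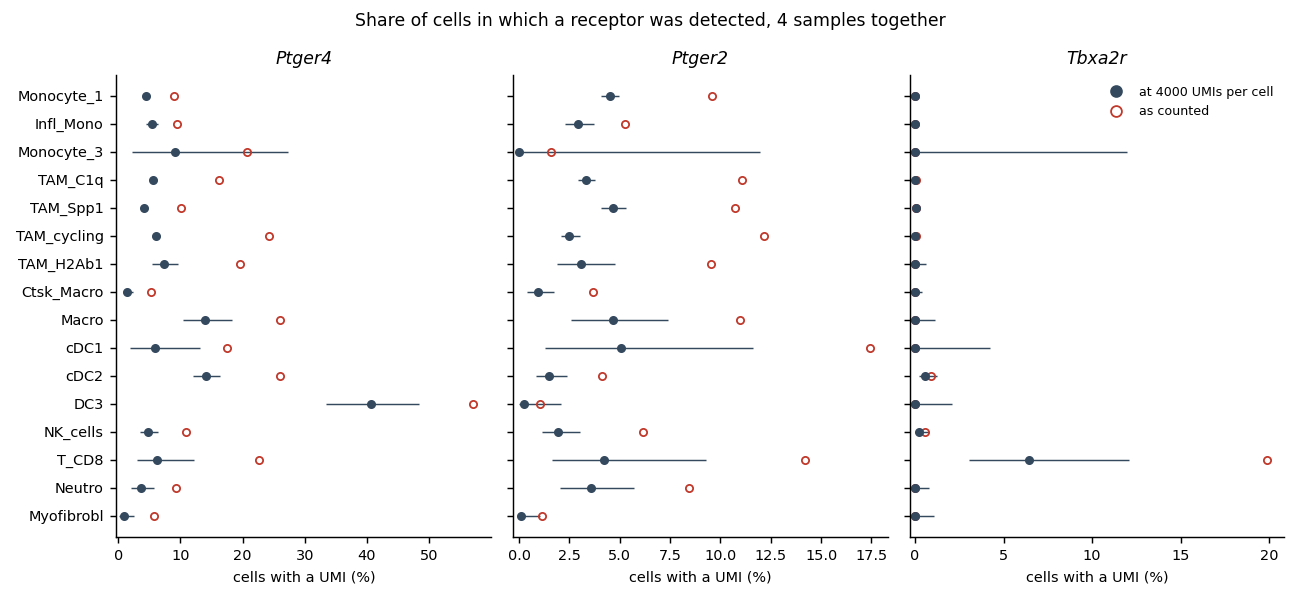
Percent of cells with at least 1 UMI of a receptor by cell type, with every cell reduced to 4000 UMIs (filled, exact 95% binomial intervals) and as counted (open red). For Ptger4 the reduced share runs from 0.902% in Myofibrobl to 40.6% in DC3, and the gap between open and filled points shows how depth moves the raw share.

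Ptgir, the prostacyclin receptor, was highest in Macro and in monocytes when the samples were summed. Its level was 7.08 CPM in Macro (4.63 to 10.4), 3.37 in Infl_Mono (2.59 to 4.31) and 2.56 in Monocyte_1 (2.22 to 2.93), against 1.04 in TAM_Spp1, 0.872 in TAM_cycling, 0.741 in TAM_C1q and 0.229 in NK cells. Neutrophils, at 2.03, overlapped with Monocyte_1. By sample Macro ran from 3.61 in RTT_ROSA26 to 15.4 in NTT, on at most 14 UMIs each. Monocyte_1 held 2.68 in NTT and 2.58 in RTT_PTGS12KO, which supplied most of its cells, but 1.10 (0.30 to 2.82, 4 UMIs) in RTT, where TAM_H2Ab1 held 1.16 and Neutro 3.32. The level in Myofibrobl, 1.12, lay among those of the macrophages, so that Ptgir was not lowest there, unlike Ptger2 and Ptger4.

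Tbxa2r, the thromboxane receptor, was concentrated in the transferred T cells. Of its 72 UMIs, 39 lay in the 141 cells of T_CD8, giving 13.9 CPM (9.88 to 19.0), a level near that of Ptger4 in the same cells, 16.8. A Tbxa2r UMI was found in 28 of 141 T cells, or 19.9% (13.6 to 27.4), and in 6.44% (3.05 to 12.1) after reduction to 4000 UMIs. In NTT 19 of 93 T cells held 25 UMIs, a level of 16.02 (10.4 to 23.7), and in RTT_PTGS12KO 6 of 45 held 9, a level of 7.78 (3.56 to 14.8). RTT and RTT_ROSA26 had 1 and 2 T cells, too few for a value. All monocytes and macrophages together held 11 Tbxa2r UMIs. A further 16 lay in cDC2, and they were not spread evenly. The 31 cDC2 cells with a UMI of Siglech, a marker of plasmacytoid dendritic cells, held 15 of them in 9 cells, a level of 57.3 (32.1 to 94.5), and the other 1057 held 1, a level of 0.0957. In NTT 13 such cells held 13 UMIs and the other 269 held 1. Of the 9 cDC2 cells of NTT with a Tbxa2r UMI, 6 also had a UMI of a T cell marker and 7 of a cDC2 marker, and the part of T cell RNA in this was not tested. Ptger4 was 49.7 and 44.4 in the same cells. This split was chosen after the values were seen.

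The remaining receptors had few UMIs. Ptger3, the receptor that lowers cyclic AMP, had 6 of its 41 UMIs in 43 mast cells, each in a cell of its own, which is 14.0% of them (5.30 to 27.9) and a level of 13.3 CPM, with 4 in RTT_ROSA26 and 2 in RTT. NK cells held 15 (1.14 CPM), T_CD8 5 and cDC2 5, and no Ptger3 UMI was found among 7227 cells of TAM_C1q, which allows a level of up to 0.0278 CPM. Ptgdr2, the chemoattractant receptor for prostaglandin D2, had 18 UMIs, of which 7 lay in cDC2 (0.653), 5 in Monocyte_1 and 2 in cDC1. Ptgdr had 2 UMIs, 1 in Monocyte_1 of NTT and 1 in Macro of RTT, and no pattern could be read at this depth. Ptger1 had 274 UMIs and was low in every type. It was 1.30 in NK cells (0.755 to 2.08), above the 0.584 of pooled monocytes and macrophages (0.511 to 0.665), and 2.48 in DC3 on 4 UMIs. In monocytes and macrophages it was 0.665 in NTT, 0.570 in RTT_PTGS12KO, 0.614 in RTT and 0.527 in RTT_ROSA26, and all intervals of the ratios between them contained 0 on the log2 scale.

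For the comparison between samples, monocytes and macrophages were pooled (29542 cells) because they make up most cells in every sample, and then taken apart. Within macrophages the types still differed. Of 308 such cells in NTT, 192 were TAM_H2Ab1 and 79 TAM_cycling, while of 6734 in RTT 3412 were TAM_C1q and 2057 TAM_Spp1. Naive and resistant tumours were compared as NTT against RTT, and the knockout as RTT_PTGS12KO against RTT_ROSA26. RTT_ROSA26 against RTT, both resistant with both Ptgs genes, serves as a yardstick for how far such lines differ. It shares a sample with each of the others, so the 3 comparisons are not independent.

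Ptger4 in monocytes and macrophages was lowest in RTT. Its level was 14.7 CPM in NTT, 17.1 in RTT_PTGS12KO, 10.2 in RTT and 16.1 in RTT_ROSA26. NTT stood 0.53 above RTT on the log2 scale (0.40 to 0.67), RTT_PTGS12KO 0.09 above RTT_ROSA26 (-0.00 to 0.18) and RTT_ROSA26 0.66 above RTT (0.55 to 0.77). Pooled, the yardstick difference between both resistant lines was thus as large as that between naive and resistant cells. With TMM factors it was 0.59 against 0.72, and within macrophages, whose types differed between NTT and RTT, 0.66 against 1.02, so that order turned. Pooled, the knockout differed from its control by little. The 3 chip loads, which are technical repeats of each sample, gave 9.48 to 10.6 in RTT against 14.1 to 15.1 in NTT, 16.9 to 17.7 in RTT_PTGS12KO and 15.5 to 16.5 in RTT_ROSA26, so that RTT overlapped with no other sample.

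Within types, the interval for NTT against RTT lay above 0 in 4 of 6 types and below it in 0, with log2 ratios of 1.30 in TAM_H2Ab1, 0.93 in Monocyte_1, 0.93 in TAM_cycling and 0.49 in cDC2. The estimate in Infl_Mono was -0.25. RTT_ROSA26 was above RTT in 9 of 10 types, with the interval above 0 in 6, among them Monocyte_1 (1.61, on 9 UMIs in 54 cells of RTT_ROSA26), TAM_Spp1 (0.97) and cDC2 (0.78). The lower type was Myofibrobl, at -2.39 (-7.76 to 0.27) on 1 UMI against 19. The knockout against its control was higher in 3 of 9 types and lower in 6, with intervals above 0 in TAM_Spp1 (0.30), TAM_cycling (0.26) and Ctsk_Macro (0.90), while the 6 lower types ran from -0.69 in Monocyte_1 to -0.02 in TAM_C1q, all with intervals that contained 0. Within all monocytes the ratio was -0.61 (-1.24 to 0.09).

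For Ptger2 the pooled value and the values within types differed. Pooled monocytes and macrophages had 10.6 CPM in NTT, 8.82 in RTT_PTGS12KO, 9.42 in RTT and 6.54 in RTT_ROSA26. NTT was 0.16 above RTT (0.01 to 0.31), yet within types it was higher in 1 and lower in 5 of 6. Intervals lay below 0 in TAM_cycling (-1.48, -3.38 to -0.10, on 4 UMIs in NTT) and cDC2 (-1.39, -2.79 to -0.13, on 8 against 19 UMIs). The interval in Monocyte_1 (-0.43) ended just below 0, at -0.003. Within all monocytes the ratio was -0.34 and within all macrophages -0.70, which turned to 0.29 when both classes were named by their marker UMIs instead of by the authors' types. Monocytes, which carry more Ptger2 (10.8 CPM against 7.90 in macrophages), made up 6619 of 6927 such cells in NTT and 522 of 7256 in RTT. With the mixture of types held fixed the ratio was -0.53. That mixture held only the 4 types with at least 50 cells in both samples. TAM_C1q and TAM_Spp1, with 12 and 20 cells in NTT, were left out, though they held 3412 and 2057 of the RTT cells.

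The knockout stood 0.43 above its control in Ptger2 (0.29 to 0.57), but this value was 0.04 at a fixed mixture, 0.21 within monocytes, 0.32 (0.16 to 0.47) within macrophages and, by type, 0.70 in TAM_cycling (0.45 to 0.96), 1.59 in Neutro (0.42 to 2.86) and -0.40 in TAM_Spp1 (-0.72 to -0.08). It was higher in 5 types and lower in 4. RTT_ROSA26 stood at -0.53 against RTT on the log2 scale (-0.67 to -0.38) and was lower in 5 of 7 types, with the interval below 0 in cDC2 (-1.44), TAM_cycling (-0.69) and TAM_C1q (-0.36). Pooled, the yardstick difference was at least as large as both others. At a fixed mixture, of 6 types, it was only -0.23, against -0.53 for NTT against RTT, of 4 types. Within macrophages it was -0.50 against -0.70.

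As Ptger4 and Ptger2 differed in opposite directions between both resistant lines, their balance did too. Ptger4 over Ptger2 in pooled monocytes and macrophages was 1.08-fold in RTT (0.988 to 1.18) and 1.40-fold in NTT (1.25 to 1.55). It was 1.94-fold in RTT_PTGS12KO (1.81 to 2.09) and 2.46-fold in RTT_ROSA26 (2.25 to 2.70). RTT and NTT lay further apart within classes, at 0.735-fold and 1.30-fold in monocytes and 1.11-fold and 3.65-fold in macrophages.

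Among the 4 receptors that could be compared in monocytes and macrophages, Ptgir had the largest ratio between NTT and RTT. Its level in monocytes and macrophages was 2.66 CPM in NTT, 1.71 in RTT_PTGS12KO, 0.624 in RTT and 0.736 in RTT_ROSA26. The log2 ratio was 2.09 for NTT against RTT (1.66 to 2.54), 1.22 for the knockout against its control (0.83 to 1.62) and 0.24 for the yardstick (-0.26 to 0.74). By chip load the levels were 1.91 to 3.50 in NTT and 1.60 to 1.81 in RTT_PTGS12KO, above 0.545 to 0.675 in RTT and 0.579 to 0.926 in RTT_ROSA26. Monocytes made up 6619 of 6927 of these cells in NTT, 4015 of 9222 in RTT_PTGS12KO, 522 of 7256 in RTT and 144 of 6137 in RTT_ROSA26, so Ptgir followed their share except between the last 2 samples. At a fixed mixture the first ratio was 1.28 (0.26 to 2.31) and the second 0.35 (-0.77 to 1.46), by intervals symmetric about the ratio. NTT against RTT was 1.16 within monocytes (0.00 to 2.63, 6 UMIs in RTT) and 1.54 within macrophages (0.16 to 2.67, 7 UMIs in NTT). The knockout was -0.51 against its control within monocytes (-1.90 to 1.39), where RTT_ROSA26 had 4 UMIs in 144 cells, and 0.77 within macrophages (0.33 to 1.23). Markers of platelets, which carry the prostacyclin receptor, were also highest in NTT (4.39 CPM summed, against 1.16 in RTT_PTGS12KO, 0.624 in RTT and 0.517 in RTT_ROSA26), and their part in the result was not tested.

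Of the 8 receptors 4 (Ptger1, Ptger2, Ptger4 and Ptgir) reached the 20 UMIs in both samples together that a pooled comparison required. Past 2-fold lay only Ptgir in NTT against RTT, where 26.1% of 13801 genes did so, and only Ptgir in the knockout against its control, where 12.1% of 14434 did. None of them did in the yardstick, where 5.58% of 14256 genes did. Within macrophages Ptger4 and Ptgir, the latter on 7 UMIs in NTT, passed 2-fold in NTT against RTT (15.2% of genes). None did in the knockout (8.61%) or the yardstick (5.12%). Within monocytes Ptgir passed in NTT against RTT (10.1%), on 6 UMIs in RTT. Ptger4, of 2 receptors compared, passed in the yardstick (8.95%). None with a finite ratio did in the knockout (12.0%), where Ptger1 had 32 UMIs against 0 and no ratio could be given. In cDC2 only Ptger4 and Ptger2 could be compared, and Ptger2 passed 2-fold downward in NTT against RTT (14.5% of genes in either direction) and in the yardstick (7.12%), with none in the knockout (10.6%). The median log2 ratio of the 4 receptors was 0.35 against -0.22 over all genes in NTT against RTT, 0.27 against -0.17 for the knockout and 0.01 against 0.07 for the yardstick.

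The cells that supplied the receptor transcripts differed by sample. In NTT monocytes held 84.2% of Ptger2 UMIs and 87.6% of Ptgir UMIs, against 74.4% of all UMIs, and 62.5% of Ptger4 UMIs. Dendritic cells made 4.97% of all UMIs in NTT and 18.1% of those of Ptger4, and NK and T cells a further 10.4%, against 12.6% of all UMIs. In RTT macrophages held 82.6% of Ptger4 and 83.8% of all UMIs. In RTT_PTGS12KO macrophages held 63.5% and monocytes 21.5% of Ptger4, against 61.2% and 28.4% of all UMIs, while monocytes held 34.4% of Ptger2 and 46.6% of Ptgir. Over all samples dendritic cells supplied 10.6% of Ptger4 UMIs and 1.87% of Ptger2 UMIs, with 3.08% of all UMIs.

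**Figure D2:**
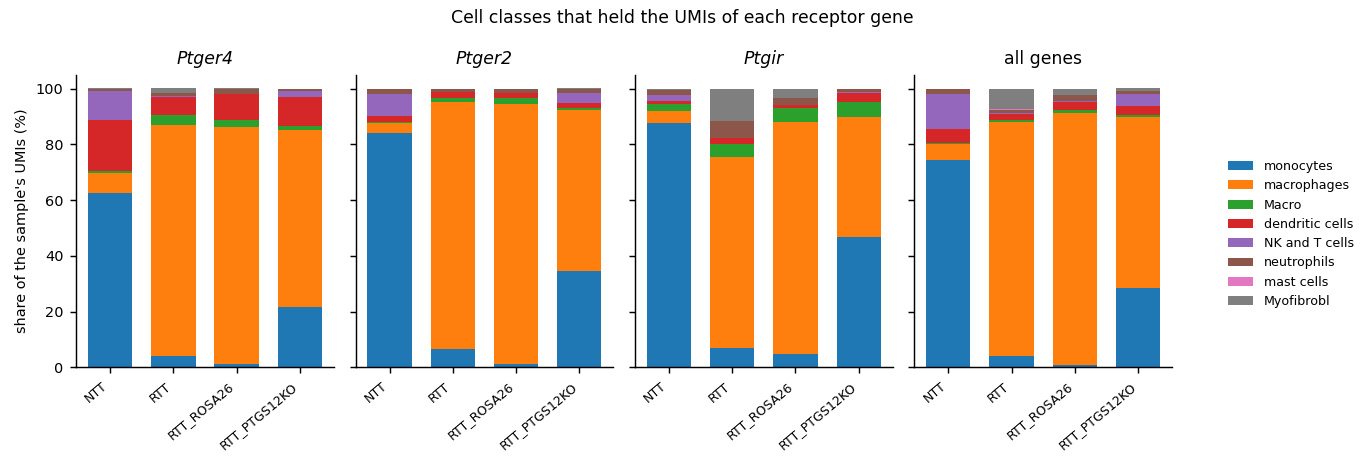
Stacked bars of the percent of UMIs of Ptger4, Ptger2 and Ptgir, and of all genes, that lay in each class of cell, by sample, on an axis from 0 to 100. Dendritic cells take a wider band of Ptger4 than of all genes in NTT, 18.1% against 4.97%, and monocytes are the widest band in each bar of NTT.

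Of 14 genes for enzymes and transporters that make, move or remove prostanoids, 12 could be compared in pooled monocytes and macrophages for NTT against RTT, where 2 passed 2-fold upward and 4 downward. For the knockout 0 of 11 did so upward and 3 downward, and in the yardstick 0 passed in either direction. Over all genes 8.16% lay past 2-fold upward and 17.9% downward in NTT against RTT, 5.58% and 6.49% in the knockout, and 2.83% and 2.75% in the yardstick. Ptgs1, the constitutive cyclooxygenase, was 6.99 CPM in NTT, 15.7 in RTT_PTGS12KO, 69.0 in RTT and 57.0 in RTT_ROSA26, log2 ratios of -3.30 and -1.86. Hpgds, the prostaglandin D2 synthase of haematopoietic cells, was 13.2, 44.5, 114 and 138 in the same order of samples (-3.11 and -1.63), and Hpgd, which inactivates prostaglandins, 1.82, 2.27, 5.35 and 8.31 (-1.56 and -1.88). Pooled, these 3 genes were lower in NTT and RTT_PTGS12KO than in either RTT or RTT_ROSA26. Within classes the NTT against RTT ratio was -0.79 in monocytes and -1.91 in macrophages for Ptgs1, and -1.94 and -0.64 for Hpgds. For Hpgd it was 0.19 (-0.85 to 1.44) in monocytes and -2.17 in macrophages. The knockout ratios of all 3 were past 2-fold downward within macrophages. In monocytes they rest on 144 cells of RTT_ROSA26, where Hpgd was 30.9 against 1.63 in RTT, a yardstick ratio of 4.25, and where the interval for Ptgs1 ran from -2.14 to -0.03. Pooled, Ptgs2, the inducible cyclooxygenase, stayed within 2-fold, at 634 in NTT, 349 in RTT_PTGS12KO, 326 in RTT and 197 in RTT_ROSA26 (0.96 and 0.83). For NTT against RTT its ratio was 0.66 within monocytes and turned to -0.35 (-0.44 to -0.26) within macrophages, and for the knockout it was 0.95 and 0.39. Tbxas1, thromboxane synthase, and Ptges3 had ratios of 0.74 and 0.41, and -0.04 and -0.09. These cells are host cells, in which neither Ptgs gene was edited.

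Among 30 partners that carry receptor signals, such as G proteins, adenylyl cyclases and kinases, 24 could be compared, of which 1 was past 2-fold upward and 6 downward in NTT against RTT and 1 and 2 in the knockout, beside 8.16% and 17.9% of all genes in the first and 5.58% and 6.49% in the second. Gnas, the Gs protein through which EP2, EP4 and IP act, was 149 in NTT, 155 in RTT_PTGS12KO, 103 in RTT and 127 in RTT_ROSA26 (0.54 and 0.29), and Gnai2, a Gi protein, differed little (-0.07 and 0.03). The adenylyl cyclase Adcy3 was 0.971, 21.1, 24.0 and 5.51 in NTT, RTT, RTT_ROSA26 and RTT_PTGS12KO, ratios of -4.44 and -2.12, while Adcy4, another of these enzymes, went the other way at 4.44, 0.818, 0.487 and 0.980 (2.44 and 1.01). Gna12, a G protein of another class, was lower in both comparisons (-1.69 and -1.02). Within macrophages 2 of 23 partners were past 2-fold in NTT against RTT, Adcy3 (-1.79) and Adcy9, and Adcy3 alone in the knockout (-1.61), beside 15.2% and 8.61% of all genes in either direction. There Adcy4 was 0.72 and 0.37, and Gna12 -0.44 and -0.73.

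Other receptors that raise cyclic AMP were read in the same cells. Of 11 genes 8 could be compared in NTT against RTT, with 2 past 2-fold upward and 3 downward, and 9 in the knockout, with 3 upward and 1 downward, again beside 8.16% and 17.9% of all genes in NTT against RTT and 5.58% and 6.49% in the knockout. The adenosine receptor Adora2a (2.69 and 1.97) and the histamine receptor Hrh2 (2.26 and 1.48, with 19.8 CPM in NTT and 4.12 in RTT) were higher in both, and Vipr1, a receptor for vasoactive intestinal peptide, lower (-3.97 and -2.42). Gpr65, a proton sensor, was the most abundant, between 101 in RTT and 132 in NTT (0.40 and -0.08). Among 20 receptors for other lipid mediators and related ligands, 5 of 17 compared were past 2-fold upward and 5 downward in NTT against RTT, and 4 and 3 of 16 in the knockout. The leukotriene B4 receptor Ltb4r1 (130 in NTT, 94.6 in RTT_PTGS12KO, 40.7 in RTT and 31.3 in RTT_ROSA26, ratios of 1.68 and 1.60), the leukotriene receptor Cysltr2 (3.0 and 1.62), Gpr132 (1.68 and 1.40) and the formyl peptide receptor Fpr2 (2.27 and 2.78) were higher in both. The sphingosine phosphate receptor S1pr1 (-4.82 and -2.13), the oxysterol receptor Gpr183 (-3.0 and -1.56) and the lysophosphatidic acid receptor Lpar4 (-1.51 and -1.22) were lower in both. Several of these values were smaller or turned within classes. For NTT against RTT, Ltb4r1 was -0.35 in monocytes and 0.49 in macrophages, and Fpr2 -0.01 and 0.88. For the knockout, Adora2a was -1.17 in monocytes and 0.51 in macrophages. S1pr1, Gpr183 and Cysltr2 kept their direction past 2-fold in both classes and both comparisons. In the yardstick 3 of 17 lipid receptors compared, Lpar1, Fpr1 and Fpr2, passed 2-fold, all downward, beside 2.75% of all genes in that direction.

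The genes whose levels followed a receptor most closely over the 42 combinations of type and sample were, for Ptger4, Il21r, a cytokine receptor (r = 0.90), Etv3, a transcriptional repressor (0.89), and the kinase Map3k1 (0.87). For Ptger2 they included the G protein subunit Gng2 (0.84) and the transcription factor Fli1 (0.82), and for Ptgir they were Ilrun (0.77), Hnrnph2 (0.76) and Ppp1r15b (0.76). Those for Ptger1 were weaker, with Ppp2cb at 0.60. These values were among the highest of 10469 genes compared, over points that share libraries and cell mixtures, and are given as a description without a p.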

How the data were processed

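Single-cell RNA sequencing libraries of CD45+ cells from 4 samples, 1 per group as the labels give them, were pooled by oligonucleotide tags and loaded in 3 chip lanes. The authors deposited UMI counts per gene and cell, not normalised, from Cell Ranger on an mm10 reference, together with cell types and samples for each cell from Seurat 4.3.0. Their filter required more than 1000 genes per cell and limited mitochondrial UMIs to 15% and ribosomal UMIs to 40%. Doublets between samples were removed by the tags. Within a sample no doublet caller was run here, and the alternative without the 5% of cells with most UMIs stands in for it.

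From these counts UMIs were summed per sample and type and divided by total UMIs (CPM, per 1000000), with exact intervals at 95% that cover counting error only. Monocytes were Monocyte_1, Infl_Mono and Monocyte_3, and macrophages TAM_C1q, TAM_Spp1, TAM_cycling, TAM_H2Ab1 and Ctsk_Macro, without Macro. Shares of cells were also taken after thinning each cell to 4000 UMIs, leaving out shallower ones. A log2 ratio used no pseudocount, and a gene entered the background with at least 20 UMIs in both samples together. A limit for a count of 0 used 3 counts. The fixed mixture weighted types with at least 50 cells in both samples by the mean of their cell shares. In NTT against RTT these were Monocyte_1, Infl_Mono, TAM_cycling and TAM_H2Ab1 only. The level expected from free RNA was that of the whole pool times the level of foreign markers in a type relative to the pool. Python 3.11.15 was used with pandas 2.3.3, scipy 1.17.1 and numpy 2.4.6, and R 4.3.3 with edgeR 4.0.16 for TMM factors only. The ratio computation was tested on simulated data. Named genes were the 8 receptors, the 3 genes most like each with at least 200 UMIs, and from 4 lists those past 2-fold the same way in both comparisons or most abundant, of which some are not reported here. The members and lists were chosen with earlier results of these data known. Alternatives covered the scale, a pseudocount of 1, stricter cell filters (over 1500 genes, under 10% mitochondrial UMIs), the naming of classes, the mixture and each load alone.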

Additional observations from a re-analysis of the deposited data

Results flagged for a closer look

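Within RTT_PTGS12KO against RTT_ROSA26, Ptger2 lay on opposite sides of 0 in different types, by intervals that cover counting error only. It was higher in TAM_cycling by 0.70 on the log2 scale and in Neutro by 1.59, and lower in TAM_Spp1, at -0.40. The difference between these types was not tested, since each group has 1 sample.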

How the results depend on the processing

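No paired analysis was possible because there is a single sample in every group. Of the alternative values of the pooled log2 ratios and of the shares of genes past 2-fold, 94 stayed near the main value (within the ratio's interval, or within 1.5 times the share), 41 moved further and 4 turned direction from a main ratio whose interval left out 0. Of those for levels, shares of cells and ratios within types, 328 stayed, 123 moved and 1 turned by the same rule, and the cause was not tested. For Ptger2 in NTT against RTT the ratio (0.16) was 0.35 with TMM factors and turned to -0.34 within monocytes, -0.70 within macrophages and -0.53 at a fixed mixture, and naming classes by marker UMIs put the macrophages at 0.29. For the knockout it was 0.58, 0.21 in monocytes and 0.0355 at a fixed mixture, and for RTT_ROSA26 against RTT -0.23 at a fixed mixture and -0.68 in 1 load. For Ptger4 in NTT against RTT it was 0.72 with TMM, 1.02 in macrophages, 0.68 at a fixed mixture and 0.67 in 1 load. In the knockout it was 0.24 with TMM, -0.61 in monocytes, 0.22 in macrophages and -0.0315 at a fixed mixture, from a main ratio of 0.09 whose interval contained 0, and in RTT_ROSA26 against RTT 1.04 in monocytes and 0.80 in 1 load. For Ptgir in NTT against RTT it was 1.17 with 1 added to the CPM, 1.16 in monocytes, 1.54 in macrophages, 1.28 at a fixed mixture and 1.52 and 2.68 in single loads. In the knockout it was 0.64, -0.51, 0.77, 0.35, and 1.64 and 0.79 in that order, and in RTT_ROSA26 against RTT 1.71 in monocytes and 0.76 in 1 load. For Ptger1 in NTT against RTT it was 0.73 in monocytes and 0.92 at a fixed mixture, and in the knockout 0.68 in 1 load. With genes of at least 10 CPM the shares past 2-fold, in the order NTT against RTT, knockout and RTT_ROSA26 against RTT, were 14.9%, 5.59% and 1.63% pooled, 3.32%, 3.98% and 3.71% in monocytes and 8.89%, 3.34% and 1.3% in macrophages. Depth limits Ptgdr, Ptgdr2 and Ptger3 in nearly all types.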
